A study of Saccharomyces cerevisiae with 6 samples.

Results

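The 7 hexose transporter genes HXT1 to HXT7 and the glucose sensor genes SNF3 and RGT2 were followed in budding yeast, Saccharomyces cerevisiae. They were taken by name, 9 of the 5795 genes in the table, and all 9 passed the filter on low values. RNA was sequenced from gat1-delta cells in proline medium, dal80-delta cells in glutamine medium and gat1-delta cells in glutamine medium, with 2 libraries per group. GAT1 and DAL80 encode GATA factors: Gat1 is known to activate, and Dal80 to repress, genes that let yeast live on poor nitrogen sources such as proline. Glutamine is a preferred nitrogen source. No wild-type library and no dal80-delta library in proline was analysed here, and the labels used here state neither the strain background nor the carbon source. They call the replicates biological. The limma p-values weigh a difference against the spread of libraries within groups, which is pooled over all groups and drawn towards that of other genes.

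Glucose enters yeast by facilitated diffusion through the Hxt proteins of the plasma membrane. Rgt2 and Snf3 resemble these transporters but act as sensors: on binding glucose they lead to the destruction of Mth1 and Std1, which the repressor Rgt1 needs to hold HXT genes off. A second repressor, Mig1, acts on genes for low-glucose transporters and for other sugars while glucose is plentiful. In common laboratory strains HXT1 is known as a low-affinity transporter gene of high glucose, HXT3 as a low-affinity gene with broader expression, HXT2 and HXT4 as genes induced by low glucose, and HXT6 and HXT7 as high-affinity genes repressed by high glucose. HXT5 is known for expression in slowly growing cells.

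Levels are given as scaled reads, the read counts after the authors brought each library to nearly the same total over genes, and as scaled reads per kb of gene where genes are compared with each other. The libraries held 17009715 to 34718641 recovered reads. GAT1 had at most 3 reads in any gat1-delta library, against 1603 and 1062 reads in the dal80-delta libraries. DAL80 had 195 and 497 reads in gat1-delta in proline, 1 and 0 in dal80-delta in glutamine, and 2 and 1 in gat1-delta in glutamine, where DAL80 is not the deleted gene by the labels. The groups also differed in mating-type transcripts, gat1-delta in proline from gat1-delta in glutamine as well. The summed level of 7 a-specific genes was 4922 to 6517 scaled reads in gat1-delta in proline, 25721 to 27468 in dal80-delta in glutamine, and 171 to 193 in gat1-delta in glutamine. The summed level of 4 alpha-specific genes was 84262 to 89581 scaled reads in gat1-delta in proline, 433 to 448 in dal80-delta in glutamine, and 36055 to 36270 in gat1-delta in glutamine. No gene of either list was at 0 in both libraries of a group. The part of these differences in the results was not tested.

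Several of the genes lie side by side. On chromosome 8 of build R64, all on the minus strand, lie HXT4 (YHR092C, 287081 to 288811), HXT1 (YHR094C, 290913 to 292625) and HXT5 (YHR096C, 294669 to 296447). On chromosome 4, also on the minus strand, lie HXT7 (YDR342C, 1154216 to 1155928), HXT6 (YDR343C, 1159608 to 1161320) and HXT3 (YDR345C, 1162957 to 1164660). The sensor genes SNF3 (YDL194W, 111580 to 114234) and RGT2 (YDL138W, 213351 to 215642) lie on the plus strand of chromosome 4. HXT2 (YMR011W, 288079 to 289704) lies alone on the plus strand of chromosome 13. Each of the 9 reading frames had the same ends in the RefSeq R64 annotation, and none overlapped another annotated gene.

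HXT6 and HXT7 differ at 3 of 1713 bases of their reading frames, an identity of 99.8%. The stretch that holds all 3 is shown because it limits what can be said of either gene alone. It covers bases 1617 to 1692 of each frame, chr4:1159629-1159704 for HXT6 and chr4:1154237-1154312 for HXT7, minus strand, R64 sequence from RefSeq. Capitals mark the differing bases, which are T1632C, G1666A and T1677C with the HXT6 base first and positions counted from 1 at the A of the start codon.
HXT6: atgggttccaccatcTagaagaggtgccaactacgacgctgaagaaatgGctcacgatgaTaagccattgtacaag
HXT7: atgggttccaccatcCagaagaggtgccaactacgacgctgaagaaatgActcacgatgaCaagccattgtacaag

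Of the 1664 stretches of 50 bases in either frame, 82 (4.93%) occur once in the genome. This share was 85.1% for HXT3, 97.5% for HXT4, between these for HXT1 and HXT5, and 100% for HXT2, SNF3 and RGT2. The counting of reads that match several places is unknown here, so values of HXT6 and HXT7 one by one are uncertain, and their sum is given as well. HXT1 and HXT3 were 83.3% identical over their frames, and the sensors SNF3 and RGT2 were 70.4% identical.

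Upstream stretches are shown for the 2 most abundant genes, HXT3 and HXT1, and for HXT4, HXT6 and HXT7, which were higher in dal80-delta cells. HXT5 was higher there too, but its stretch is not shown. They are printed from the far end towards the start codon, minus strand, R64 sequence from RefSeq: chr4:1164970-1165210 for HXT3, chr8:292850-293115 for HXT1, chr8:289226-289336 for HXT4, chr4:1161735-1161900 for HXT6 and chr4:1156164-1156308 for HXT7. Capitals mark the letters CGGANNA of the Rgt1 element on either strand in HXT3 and HXT1. In HXT4, HXT6 and HXT7 they mark Mig1-type cores, on either strand, which read CCGGGG in one form, GCGGGG in another, CTGGGG in the third and GTGGGG in the fourth, and the stress response element AGGGG.
HXT3: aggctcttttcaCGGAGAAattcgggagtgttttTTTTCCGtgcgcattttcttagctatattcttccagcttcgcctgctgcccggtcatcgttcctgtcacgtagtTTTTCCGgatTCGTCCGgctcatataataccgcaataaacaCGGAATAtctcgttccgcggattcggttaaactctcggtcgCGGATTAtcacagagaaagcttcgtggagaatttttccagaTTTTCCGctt
HXT1: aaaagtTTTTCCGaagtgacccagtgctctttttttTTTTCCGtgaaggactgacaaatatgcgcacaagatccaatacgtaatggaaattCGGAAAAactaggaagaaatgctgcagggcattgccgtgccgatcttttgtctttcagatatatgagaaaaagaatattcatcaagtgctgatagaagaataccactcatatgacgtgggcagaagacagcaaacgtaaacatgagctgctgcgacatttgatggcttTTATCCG
HXT4: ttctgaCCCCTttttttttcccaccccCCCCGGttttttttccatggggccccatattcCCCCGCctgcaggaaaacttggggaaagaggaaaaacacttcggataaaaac
HXT6: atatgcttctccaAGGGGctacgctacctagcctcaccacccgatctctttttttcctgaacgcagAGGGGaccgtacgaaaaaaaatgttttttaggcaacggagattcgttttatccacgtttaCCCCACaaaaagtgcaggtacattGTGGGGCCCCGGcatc
HXT7: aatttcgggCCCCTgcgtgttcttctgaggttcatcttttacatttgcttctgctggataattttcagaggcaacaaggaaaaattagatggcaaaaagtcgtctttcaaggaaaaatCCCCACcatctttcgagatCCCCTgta

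In the 1000 bases before the start codon, HXT3 held 9 Rgt1 elements and HXT1 held 8. HXT5 held 4, HXT2, HXT4 and HXT6 held 3 each, HXT7 held 2, and the sensor genes held 0. Of 5766 such windows over the genome, 67.2% held at least 1 Rgt1 element, with a median of 1. At least as many as in HXT1 stood in 0.0347% of windows, those of HXT1 and HXT3 included. HXT2 and HXT4 each held 4 Mig1-type cores, where 0.867% of windows held at least as many and 42.0% held at least 1. HXT6 held 3 of these cores, HXT1, HXT3, HXT7 and SNF3 held 2 each, HXT5 held 1 and RGT2 held 0. HXT6 held 5 stress response elements, where 0.642% of windows held at least as many, and HXT7 held 4, where 2.29% did. At least 1 stood in 55.3% of windows. HXT5 held 2 stress response elements, HXT1, HXT3, HXT4 and RGT2 held 1 each, and HXT2 and SNF3 held 0. The element GATAAG, bound by GATA factors, stood in 40.0% of windows. There were 3 matches before SNF3, 2 each before RGT2, HXT5 and HXT6, 1 before HXT4, and 0 before HXT1, HXT2, HXT3 and HXT7. At least as many as before SNF3 stood in 2.10% of windows. The Mig1-type and stress response letters share a run of G, and matches on opposite strands can overlap. These are matches of letters only, and the windows can reach into a neighbouring gene: SEC31 lies 550 bases before SNF3.

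**Figure D1:**
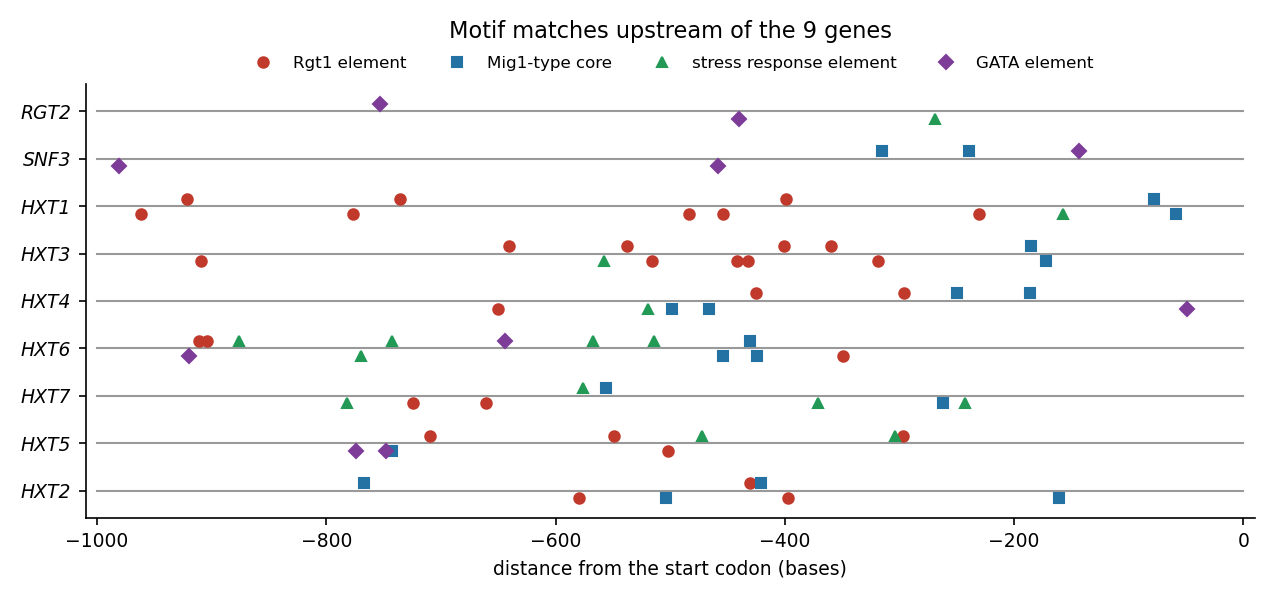
Positions of motif matches in the 1000 bases before the start codon of each of the 9 genes, on either strand, as distance from the start codon in bases. HXT3 with 9 and HXT1 with 8 carry the most Rgt1 elements, and the sensor genes SNF3 and RGT2 carry 0.

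HXT3 and HXT1, the low-affinity transporter genes, stood far above the other members in every library. Per kb, HXT3 averaged 42316 ± 3950 scaled reads in gat1-delta in proline, 20830 ± 3178 in dal80-delta in glutamine and 16701 ± 1396 in gat1-delta in glutamine (SD, n = 2 each). Its mean density ranked 20, 85 and 101 among the 5795 genes in these groups. HXT1 averaged 15700 ± 114, 5946 ± 825 and 4811 ± 1053 scaled reads per kb in the same groups (SD, n = 2 each). The other 7 genes averaged 26.7 to 1789 scaled reads per kb over the 3 groups.

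Below HXT3 and HXT1 the order of the genes differed between the groups. In gat1-delta in proline, HXT2 came next at 1310 ± 311 per kb, then RGT2 at 685 ± 18.9, HXT5 at 469 ± 102, HXT4 at 442 ± 3.70, HXT7 at 423 ± 44.0, HXT6 at 346 ± 28.9 and SNF3 at 172 ± 15.7 (SD, n = 2). There, the libraries of HXT5, HXT4 and HXT7 overlapped. In dal80-delta in glutamine, HXT7 came next at 1789 ± 186 per kb, then HXT4 at 1021 ± 188, HXT6 at 667 ± 23.4, HXT2 at 317 ± 50.6, RGT2 at 252 ± 7.73, HXT5 at 153 ± 32.4 and SNF3 at 103 ± 17.7 (SD, n = 2), and no neighbours in that order overlapped. In gat1-delta in glutamine, HXT2 came next at 490 ± 260 per kb (SD, n = 2), a mean over 2 libraries that differed widely. HXT7 followed at 276 ± 63.7, then RGT2 at 208 ± 7.53, HXT4 at 174 ± 59.7, HXT6 at 155 ± 31.8, SNF3 at 98.2 ± 10.2 and HXT5 at 26.7 ± 4.30 (SD, n = 2). There, HXT2 overlapped HXT7, and HXT4 overlapped both RGT2 and HXT6. HXT5 thus stood last of the 9 in gat1-delta in glutamine, with 48 and 95 reads, and SNF3 stood last in the other groups.

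**Figure D2:**
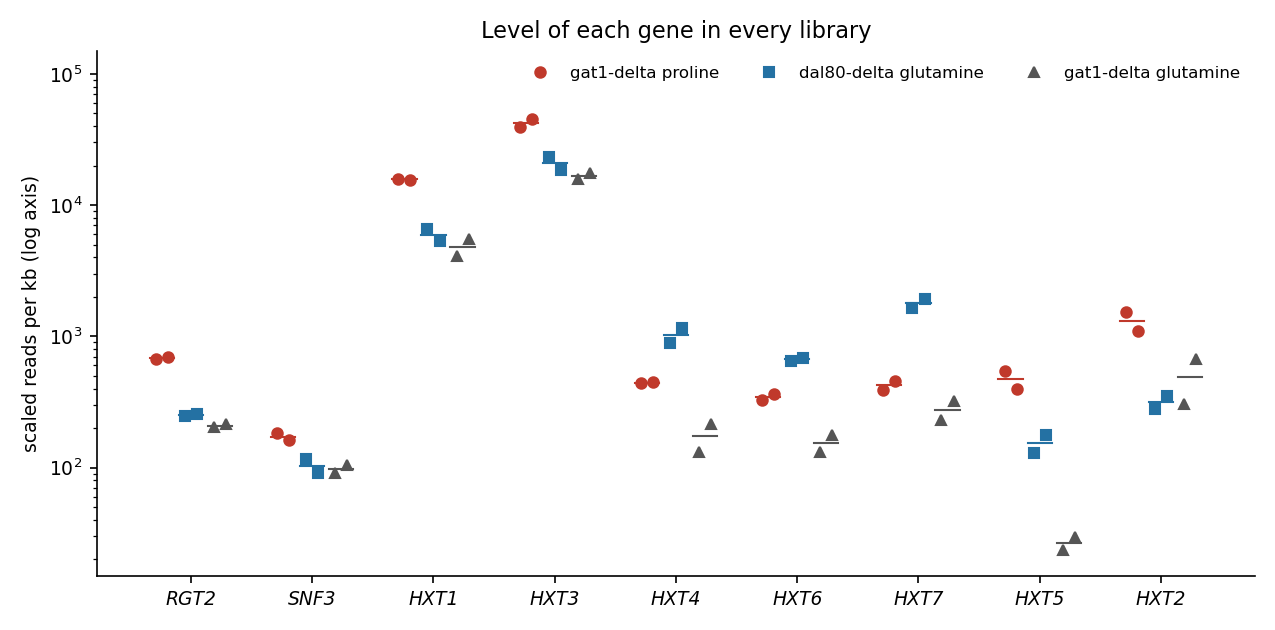
Scaled reads per kb of each gene in every library on a log axis, with gat1-delta in proline, dal80-delta in glutamine and gat1-delta in glutamine side by side and a point per library. HXT3 and HXT1 lie above the other 7 genes in all 6 libraries, and HXT5 is lowest in gat1-delta in glutamine.

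Proline against glutamine in gat1-delta cells compares the genes between a poor and a preferred nitrogen source without Gat1. All 9 genes were higher in proline, by 0.59 to 3.30 on the log2 scale, with HXT5 and HXT1 moving most and HXT7 and SNF3 least. This was a contrast in which 71.6% of the 5594 genes tested changed, 56.5% higher and 15.1% lower, so that 9 of 9 higher is to be read against a broad rise. The median change was 1.34 for the 9 genes and 0.50 for all genes tested. Changes are log2 differences of density plus a pseudocount of 22.9 scaled reads per kb, tested with limma, with Benjamini-Hochberg adjustment over all genes tested and a threshold of 0.05. With TMM scaling, which assumes most genes unchanged, the median of all genes was 0.06. Then 7 of the 9 genes remained higher, HXT7 at 0.12 and SNF3 at 0.26 losing the call, and the split of all called genes was 1889 higher and 1669 lower instead of 3162 and 844. The proline and glutamine libraries did not overlap in any of the 9 genes, where they did not overlap in 86.5% of all genes, 65.9% with proline higher and 20.6% with proline lower. In the same contrast 7 of 7 a-specific and 2 of 4 alpha-specific genes were higher in proline (7 and 1 with TMM scaling). The medium and these mating-type transcripts cannot be told apart, and their part in the results was not tested.

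The 2 sensor genes differed in how far they rose. RGT2, the sensor of high glucose, had 1540 and 1601 scaled reads in proline, against 464 and 488 in glutamine. The groups lay far apart, with little spread within either, a log2 change of 1.62 ± 0.12 (SE, limma adjusted p = 1.26e-05). SNF3, the sensor of low glucose, had 487 and 428 scaled reads in proline, against 242 and 280 in glutamine. The groups did not overlap, and the log2 change was 0.69 ± 0.15 (SE, limma adjusted p = 0.00341). For SNF3 this call was lost under every rescaling of the libraries, with TMM at an adjusted p of 0.155 and a range of 0.00293 to 0.316 over its alternatives. Per kb, RGT2 stood 3.66 and 4.33 times as high as SNF3 in the proline libraries, against 2.22 and 2.02 times in the glutamine libraries of gat1-delta cells.

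The low-affinity genes rose together. HXT1 had 27032 and 26756 scaled reads in proline, against 6965 and 9516 in glutamine. Both proline libraries lay well above both glutamine libraries, a 3.26-fold ratio of means and a log2 change of 1.72 ± 0.18 (SE, limma adjusted p = 4.75e-05). HXT3 had 67347 and 76867 scaled reads in proline, against 26775 and 30140.1 in glutamine. These groups were also apart, with a 2.53-fold ratio of means and a log2 change of 1.34 ± 0.16 (SE, limma adjusted p = 0.000112). With TMM scaling the log2 changes were 1.21 for HXT1 and 0.83 for HXT3.

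The genes known for low glucose and high affinity rose less evenly. HXT2, a transporter gene induced by low glucose, had 2488 and 1772 scaled reads in proline, against 497 and 1095 in glutamine. The proline libraries were higher, but each pair was spread widely, and the log2 change was 1.46 ± 0.32 (SE, limma adjusted p = 0.00279). DESeq2 on the recovered reads gave 0.83 with an adjusted p of 0.169, where the alternatives of this result ranged over 0.000227 to 0.169.

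HXT4 had 761 and 770.1 scaled reads in proline, against 228 and 374 in glutamine, a log2 change of 1.28 ± 0.21 (SE, limma adjusted p = 0.000639). HXT6 had 558 and 628 scaled reads in proline, against 227 and 304 in glutamine, a log2 change of 1.06 ± 0.16 (SE, limma adjusted p = 0.00033). In both genes the proline libraries were above the glutamine libraries without overlap. With TMM scaling the log2 changes were 0.81 for HXT4 and 0.60 for HXT6. HXT7 had 672 and 779 scaled reads in proline, against 396 and 550.2 in glutamine. The groups were apart by less than in the other members, at 0.59 ± 0.17 (SE, limma adjusted p = 0.0131). The call on HXT7 was lost without gat1-delta glutamine replicate 1 (0.37, adjusted p = 0.0888), without gat1-delta proline replicate 2 (0.49, adjusted p = 0.0731) and with TMM scaling (0.12, adjusted p = 0.622), in a range of 0.00428 to 0.861 over its alternatives.

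HXT6 and HXT7 summed came to 1230 and 1407 scaled reads in proline, against 622 and 854 in glutamine. The sum was higher in proline by 0.82 ± 0.17 (log2, SE, limma adjusted p = 0.00217). With TMM scaling the change was 0.33 (adjusted p = 0.165), and the call was lost with the other rescalings too.

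HXT5, the transporter gene known from slow growth, had 963 and 706 scaled reads in proline, against 42.0 and 52.8 in glutamine. No other member differed as far, with a 17.6-fold ratio of means and a log2 change of 3.30 ± 0.19 (SE, limma adjusted p = 2.6e-06). The size depended on the pseudocount: the log2 change was 1.44 with a pseudocount 10 times larger and 4.02 with one 10 times smaller, and edgeR gave 3.59. Its call held in each of these.

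**Figure D3:**
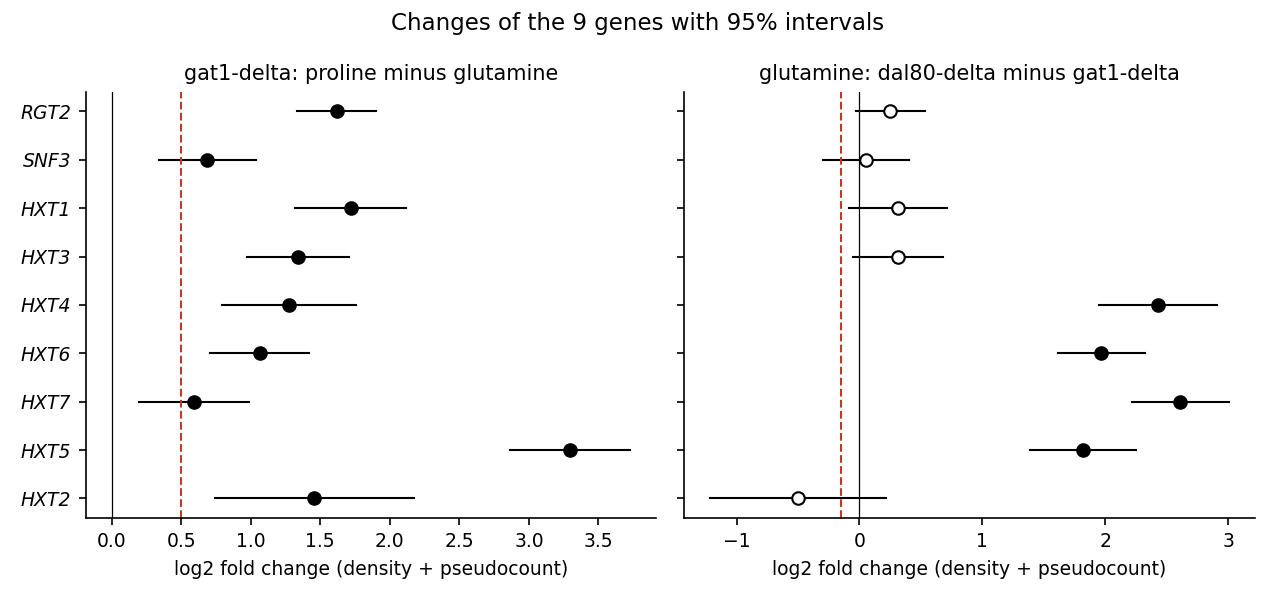
Log2 fold changes of the 9 genes with 95% intervals from limma, for proline minus glutamine in gat1-delta cells on the left and dal80-delta minus gat1-delta in glutamine on the right, filled points passing an adjusted p of 0.05. The dashed line is the median of all genes tested, 0.50 on the left and -0.15 on the right, and 9 genes pass on the left against 4 on the right.

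dal80-delta against gat1-delta in glutamine compares the strains in the preferred nitrogen source, and shares the gat1-delta glutamine libraries with the comparison above. HXT7, HXT4, HXT6 and HXT5 were higher in dal80-delta cells by 1.82 to 2.61 on the log2 scale, and the other 5 members did not pass the test. Here 5.45% of all genes tested changed, 3.97% higher and 1.48% lower, and 4 of the 9 genes is to be read against these shares. The libraries of the strains did not overlap in 6 of the 9 genes, all with dal80-delta higher, where they did not overlap in 63.9% of all genes, 17.4% with dal80-delta higher and 46.4% with dal80-delta lower. The median change was 0.31 for the 9 genes and -0.15 for all genes tested. With TMM scaling the same 4 members passed, and the split of all called genes was 346 higher and 50 lower instead of 222 and 83. In this contrast 7 of 7 a-specific genes were higher and 4 of 4 alpha-specific genes lower in dal80-delta cells, and the strains and their mating-type transcripts cannot be told apart.

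HXT7 had 2839 and 3291 scaled reads in dal80-delta cells, against 396 and 550.2 in gat1-delta cells. The groups were far apart, with a 6.48-fold ratio of means and a log2 change of 2.61 ± 0.17 (SE, limma adjusted p = 3.73e-05). HXT6 had 1114 and 1171 scaled reads in dal80-delta cells, against 227 and 304 in gat1-delta cells, a 4.31-fold ratio and a log2 change of 1.97 ± 0.16 (SE, limma adjusted p = 0.000109). A pseudocount 10 times larger gave 1.23 for HXT6. Their sum came to 3953 and 4461 scaled reads in dal80-delta cells, against 622 and 854 in gat1-delta cells. It was higher by 2.46 ± 0.17 (log2, SE, limma adjusted p = 4.17e-05), and the call held with every rescaling. Per kb, HXT7 stood 2.55 and 2.81 times as high as HXT6 in the dal80-delta libraries, 1.20 and 1.24 times in gat1-delta in proline, and 1.75 and 1.81 times in gat1-delta in glutamine.

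HXT4 had 1538 and 1997 scaled reads in dal80-delta cells, against 228 and 374 in gat1-delta cells. The groups did not overlap, with a 5.88-fold ratio of means and a log2 change of 2.43 ± 0.21 (SE, limma adjusted p = 0.000214). HXT5 had 231 and 313 scaled reads in dal80-delta cells, against 42.0 and 52.8 in gat1-delta cells, a log2 change of 1.82 ± 0.19 (SE, limma adjusted p = 0.000657). With the pseudocount 10 times larger HXT5 came to 0.58, and with edgeR to 2.65. HXT4, HXT6 and HXT7 stood higher in dal80-delta in glutamine than in gat1-delta in proline in every library, whereas HXT5 stood lower. Those 2 groups differ in both strain and medium.

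HXT1, next to HXT4 on chromosome 8, had 11185 and 9187 scaled reads in dal80-delta cells, against 6965 and 9516 in gat1-delta cells. The groups overlapped, and the log2 difference was 0.31 with a 95% interval of -0.08 to 0.71 (limma adjusted p = 0.257). HXT3, next to HXT6 on chromosome 4, had 39323 and 31665 scaled reads in dal80-delta cells, against 26775 and 30140.1 in gat1-delta cells. These did not overlap, but the difference of 0.31, with a 95% interval of -0.05 to 0.68, did not pass (limma adjusted p = 0.228). The upper ends of both intervals lay below the lower ends of those of HXT6 (1.61), HXT4 (1.95) and HXT7 (2.22).

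HXT2 had 458 and 574 scaled reads in dal80-delta cells, against 497 and 1095 in gat1-delta cells. The groups overlapped, with gat1-delta replicate 1 between the dal80-delta libraries, and the difference was -0.50 with a 95% interval of -1.22 to 0.22 (limma adjusted p = 0.309). Without gat1-delta glutamine replicate 1 it was -1.04 and passed (adjusted p = 0.0472), and without replicate 2 it was 0.042, in a range of 0.0472 to 0.913 over its alternatives. RGT2 had 565 and 589.6 scaled reads in dal80-delta cells, against 464 and 488 in gat1-delta cells, a difference of 0.25 with a 95% interval of -0.03 to 0.54 (limma adjusted p = 0.214). SNF3 had 308 and 241 scaled reads in dal80-delta cells, against 242 and 280 in gat1-delta cells, a difference of 0.06 with a 95% interval of -0.30 to 0.41 (limma adjusted p = 0.829). The sensor genes thus did not pass, and the groups of SNF3 overlapped.

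Shares of the summed HXT1 to HXT7 density do not depend on how a library was scaled. HXT1 and HXT3 together took 94.5% and 95.7% of it in gat1-delta in proline, 89.1% and 84.8% in dal80-delta in glutamine, and 96.0% and 94.3% in gat1-delta in glutamine. The dal80-delta libraries were the lowest. HXT7 took 4.99% and 6.80% there, against 1.12% and 1.30% in gat1-delta in glutamine. HXT4 took 2.68% and 4.09% in dal80-delta cells, against 0.638% and 0.876% in gat1-delta in glutamine. HXT6 took 1.96% and 2.42% in dal80-delta cells, against 0.642% and 0.719% in gat1-delta in glutamine. Between the media, in gat1-delta cells, HXT4 took 0.751% and 0.701% in proline, against 0.638% and 0.876% in glutamine, which overlapped. HXT7 took 0.670% and 0.716% in proline, against 1.12% and 1.30% in glutamine, and so had a smaller share in proline although its level was higher. The same held for HXT6, at 0.557% and 0.577% against 0.642% and 0.719%. It also held narrowly for HXT3, at 67.5% and 71.1% against 76.3% and 71.7%. HXT1 had a larger share in proline, at 27.0% and 24.6% against 19.7% and 22.5%, and the shares of HXT2 overlapped. As a whole, HXT1 to HXT7 took 0.844% and 0.916% of all gene reads in proline, against 0.297% and 0.356% in glutamine. HXT5 took 0.925% and 0.625% of the HXT sum in proline, against 0.115% and 0.120% in glutamine. With 2 libraries per group no exact permutation test of a share can pass 0.05, the smallest two-sided p being 0.333, so the shares were not tested.

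**Figure D4:**
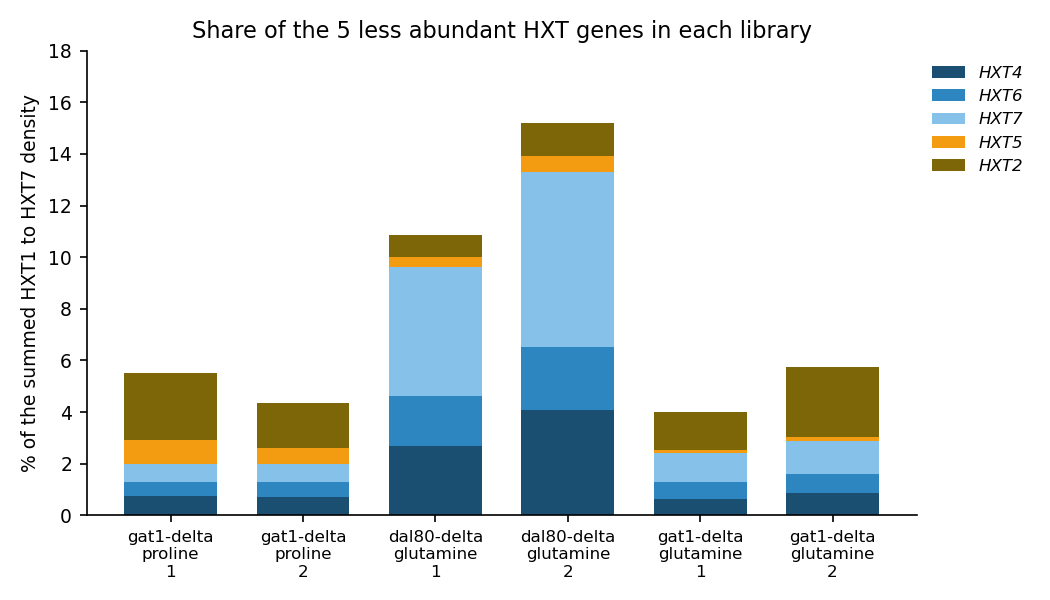
Percent of the summed HXT1 to HXT7 density taken by HXT2, HXT4, HXT5, HXT6 and HXT7 in each of the 6 libraries, as stacked bars from 0, with HXT1 and HXT3 left out. The dal80-delta bars are the highest, with HXT7 at 4.99% and 6.80% the largest part of them.

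Among the genes between the sensors and the transporters, the corepressor genes MTH1 and STD1 differed most between the media. Of 8 genes of the Rgt2 and Snf3 pathway, 6 were higher and 1 lower in proline, where 56.5% of all genes tested were higher and 15.1% lower. Their median was 0.82, against 0.50 for all genes tested. MTH1, which encodes a corepressor of Rgt1, had 726 and 473 scaled reads in proline, against 62.2 and 51.2 in glutamine, a log2 change of 2.84 ± 0.20 (SE, limma adjusted p = 7.08e-06). STD1, its paralogue, had 1038 and 1029 scaled reads in proline, against 300.3 and 273 in glutamine, a log2 change of 1.75 ± 0.15 (SE, limma adjusted p = 1.83e-05). So the sensor gene RGT2 and both corepressor genes were higher in the same libraries. GRR1, of the ubiquitin ligase that marks the corepressors, was higher by 0.82, CYC8, of the general corepressor, by 0.88, YCK2, a casein kinase, by 0.83 and RGT1 itself by 0.43. TUP1, the partner of CYC8, fell by 0.48 on the log2 scale, and the casein kinase gene YCK1 at 0.24 did not pass (limma adjusted p = 0.168). With TMM scaling 4 of the 8 were higher and 1 lower, and RGT1 came to -0.04, and with snoRNA scaling 2 were higher and 1 lower. In dal80-delta against gat1-delta in glutamine none of the 8 passed, where 5.45% of all genes tested did. The median was -0.16, with MTH1 at 0.50 (limma adjusted p = 0.145) and STD1 at -0.29 (limma adjusted p = 0.224).

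Repressor genes of the Mig family were higher in proline. MIG3 had 845 and 846 scaled reads in proline, against 119.9 and 138 in glutamine, a log2 change of 2.49 ± 0.13 (SE, limma adjusted p = 1.67e-06). MIG2 was higher by 2.35 ± 0.17 and MIG1 by 1.69 ± 0.13 (log2, SE). Of the 14 genes of the Snf1 and Mig1 list, 5 were higher and 2 lower, a smaller part higher than the 56.5% of all genes tested, with a median of 0.24 against 0.50. The 2 that fell were HXK2 and SNF4, a subunit gene of the Snf1 kinase, which fell by 0.45. With TMM scaling 5 were higher and 5 lower. None of the 14 passed in dal80-delta against gat1-delta cells, where 5.45% of all genes tested did.

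Between the media, the 4 genes for hexose phosphorylation went the other way from the transporters. All 4 fell in proline, where 15.1% of all genes tested were lower. Their median was -2.56, with the same 4 calls under TMM scaling. HXK1, a hexokinase gene, had 133 and 245 scaled reads in gat1-delta in proline, 5846 and 5812 in dal80-delta in glutamine, and 2739 and 1984 in gat1-delta in glutamine. GLK1, the glucokinase gene, had 808 and 1244 scaled reads in gat1-delta in proline, 18837 and 17686 in dal80-delta in glutamine, and 7782 and 7061 in gat1-delta in glutamine. For both genes the 3 groups were apart, with proline lowest and dal80-delta highest. In proline HXK1 fell by 3.46 ± 0.24 and GLK1 by 2.84 ± 0.19, while in dal80-delta cells HXK1 was higher by 1.31 ± 0.24 and GLK1 by 1.30 ± 0.19 (log2, SE, limma adjusted p = 0.0163 for HXK1 and 0.0055 for GLK1). EMI2, a glucokinase-like gene, fell by 2.28 in proline. HXK2, the main hexokinase of glucose growth, fell by 1.55 in proline. Neither passed in dal80-delta cells, at 0.36 for EMI2 and -0.44 for HXK2. In that contrast 3.97% of all genes tested were higher and 1.48% lower.

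**Figure D5:**
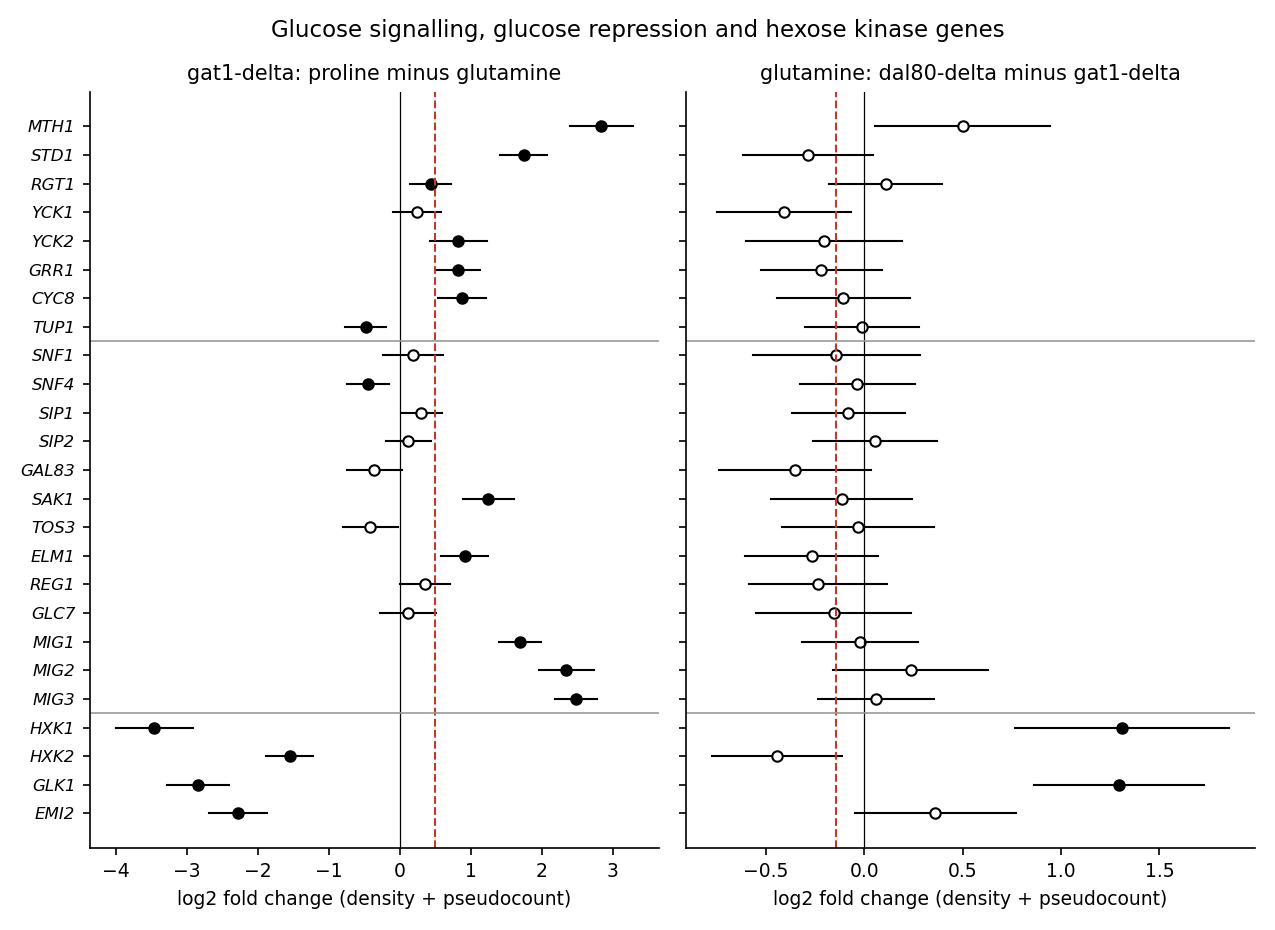
Log2 fold changes of genes of the Rgt2 and Snf3 pathway, the Snf1 and Mig1 list and hexose phosphorylation, for proline minus glutamine in gat1-delta cells on the left and dal80-delta minus gat1-delta in glutamine on the right, with filled points passing an adjusted p of 0.05 and the dashed line at the median of all genes tested. The hexose kinase genes lie left of 0 in proline, with a median of -2.56, and MTH1 at 2.84 lies farthest right.

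The lists for other sugars and for protein kinase A stood near the background of proline against glutamine, in which 56.5% of all genes tested were higher and 15.1% lower, with a median of 0.50. Of 14 tested genes for sugars that glucose represses, 8 were higher and 1 lower (4 and 1 with TMM scaling), with a median of 0.39. MAL33 was higher by 1.40, GAL80 by 1.05 and MAL31 by 0.82, with SUC2, the invertase gene, fallen by 0.61. MAL genes have near-identical copies, so their values are uncertain. Of 15 genes of the Gpr1 and Ras to protein kinase A pathway, 10 were higher and 3 lower (5 and 5 with TMM scaling), with a median of 0.53. RGS2, which turns off Gpr1 signalling, was higher by 2.72, PDE2, the high-affinity cAMP phosphodiesterase, by 2.15 and RAS1 by 1.51, while the kinase gene TPK2 fell by 1.21 and BCY1, the regulatory subunit of the kinase, fell by 0.60. None of either list passed in dal80-delta against gat1-delta cells, where 5.45% of all genes tested did.

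Of 12 arrestin and ubiquitin ligase genes of permease endocytosis, 9 were higher and 1 lower in proline (6 and 2 with TMM scaling), with a median of 0.75, beside 56.5% higher and 15.1% lower of all genes tested. Of the higher genes, ALY2 at 1.46, ART5 at 1.69 and LDB19 at 1.05 had the smallest adjusted p. The ligase gene RSP5 fell by 0.75. In dal80-delta against gat1-delta cells, 3.97% of all genes tested were higher and 1.48% lower. There ROG3 was higher by 0.59 ± 0.13 and ECM21 fell by 1.08 ± 0.18 (log2, SE, limma adjusted p = 0.0362 for ROG3 and 0.0095 for ECM21). The call on ROG3 was lost with snoRNA scaling. Of 8 regulators tied to stress and respiration, 6 were higher and 0 lower in proline (4 with TMM and 2 with snoRNA scaling), with a median of 0.80 beside 0.50 for all genes tested. HAP4 was higher by 2.95, HAP3 by 1.20 and MSN4 by 0.94. MSN4, whose product binds the stress response element, was the only 1 of them to pass in dal80-delta cells, at 0.73 ± 0.13 (log2, SE, limma adjusted p = 0.0124), a call lost with snoRNA scaling.

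The remaining hexose transporter genes had few reads. Of 11 listed, HXT12 was not found under that name, and 3 of the other 10 passed the filter. HXT8 had 46 and 55 reads in gat1-delta in proline, 27 and 20 in dal80-delta in glutamine, and 22 and 26 in gat1-delta in glutamine. It was higher in proline by 0.49 (limma adjusted p = 0.0134), a call lost with TMM scaling, and the other tested genes, HXT9 and GAL2, did not pass. HXT15 had at most 1 read and HXT16 at most 2 in any library. Several of these genes are near-identical copies, so their counts are uncertain.

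Among all genes tested, those whose centred log2 levels lay closest over the 6 libraries, by root mean square distance, were YDR090C at 0.087 for HXT1, YBL095W at 0.099 for HXT3 and YKR041W at 0.069 for RGT2. FIT3 was in the closest 3 of both HXT1, at 0.098, and RGT2, at 0.094. For SNF3 the closest was PUF4 at 0.036, and for HXT2 it was DHR2 at 0.183. Outside the members, SPI1 at 0.274 was closest to HXT4, NQM1 at 0.261 to HXT6 and PHM7 at 0.179 to HXT7. Both SPI1 and NQM1 stood in the closest 3 of HXT4 and HXT6. HXT5 had no gene nearer than YDR119W-A at 0.281. Among the members themselves, HXT1 and RGT2 lay 0.155 apart, HXT1 and HXT3 0.204, and HXT4 and HXT6 0.225, while HXT2 and HXT7 lay farthest apart at 1.73. These distances describe 6 libraries in 3 groups and are mostly set by the groups.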

How the data were processed

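Per the labels' protocols, total RNA was extracted with hot phenol, depleted of ribosomal RNA, and made into stranded libraries from 125 ng, sequenced as 2 × 50 nt pairs. TopHat and build R64 are named in the submitters' processing notes. The counting program, and how strand and multiply matching reads were handled, was not given in the sources used here. Per the file headers, the authors deposited a normalized density signal and a read count for each of 6192 features and 6 libraries. The deposited counts were whole in 1 library and scaled in the other 5, and the density signal equalled the scaled count over length. Whole reads were recovered for 100% of positive values (tolerance 0.01 reads). The table also held 6 columns for whole groups, left out here. Among 5809 identifiers matched to the RefSeq R64 annotation, 5777 (99.4%) had the same ends.

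Samples were grouped by title. Replicates differed beyond sampling noise, the chi-square statistic over its degrees of freedom being 41.6 to 70.8. The filter kept 5594 genes reaching 10 scaled reads in 2 or more libraries. They entered limma 3.58.1 (R 4.3.3) as log2 of density plus 0.0229, the 5th percentile of positive densities, with all 6 libraries in the fit and 3 residual degrees of freedom. An edgeR test had been planned for counts whole as deposited. It was run on recovered reads instead as an alternative (edgeR 4.0.16), as was DESeq2 1.42.0. The limma step was tested on simulated data. Other alternatives were the low-count filter, the pseudocount, TMM, median-ratio and snoRNA scaling, stricter thresholds, a replicate block and each library left out. The sum of HXT6 and HXT7 under other scalings was added after seeing the data.

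Named genes were the members, the Rgt2 and Snf3 pathway, and up to 3 per direction with the smallest adjusted p from each other list; 1 gene under this rule is not reported here. For each member, the 3 closest genes outside the members were found, and the closest are named. Motifs were searched in 1000-base windows of the R64 genome, since no promoter table was used here. The members and lists were chosen with earlier results of these data known.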

Additional observations from a re-analysis of the deposited data

How the results depend on the processing

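In proline against glutamine, 4006 genes passed (3162 higher, 844 lower). Rescaling by snoRNA totals gave 2465 (1650 higher), a log2 change of at least 1 gave 1723 (1439 higher, 284 lower), TMM gave 1889 higher and 1669 lower, median-ratio scaling 1755 and 1775, edgeR 1874 and 1687, and DESeq2 1651 and 1739. Between strains, 305 genes passed (222 higher, 83 lower). There snoRNA scaling gave 142 (104 higher, 38 lower), DESeq2 523 (439 higher), an adjusted p under 0.01 gave 115 (97 higher, 18 lower), a log2 change of at least 1 gave 121 (97 higher, 24 lower), TMM 346 higher and 50 lower, median-ratio scaling 348 higher, edgeR 386 higher, and the larger pseudocount 51 lower. Leaving out 1 library gave 110 to 369 genes, 92 to 251 higher and 18 to 119 lower, and 0 to 1 members lower, with 110 without dal80-delta replicate 1, 119 without dal80-delta replicate 2, 180 without gat1-delta glutamine replicate 2, and 30 lower without gat1-delta glutamine replicate 1. The cause of these differences was not tested.

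Without HXT6 and HXT7, HXT1 and HXT3 took 96.3% of the HXT density in gat1-delta in proline, 94.6% in dal80-delta in glutamine and 97.0% in gat1-delta in glutamine, by construction. SNF3 between strains turned to -0.049 with snoRNA scaling, -0.030 without gat1-delta glutamine replicate 1 and -0.088 without dal80-delta replicate 1, in a range of -0.088 to 0.20 with 1 library left out. HXT2 between strains ranged over -1.04 to 0.042 with 1 library left out, turning to 0.042 without gat1-delta glutamine replicate 2.

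The deviations of same-numbered replicates from their group means correlated at 0.00984, -0.250 and -0.0793 between groups. With 2 libraries per group, these values cannot show whether the numbers pair the samples. With the replicate number as a block, 3886 genes passed for the medium (3105 higher, 781 lower) and 208 for the strain (167 higher, 41 lower). The same members passed, 9 and 4. With 2 libraries per group, low genes such as HXT5 in gat1-delta in glutamine are limited by depth and by the pseudocount.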
